A study of Mus musculus with 18 samples.

Results

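The genes described here encode the proteins of the cytosolic ribosome and a few close relatives. The rule goes by gene name and uses no measured value: every probe set with a single gene symbol that begins with Rpl or Rps followed directly by a digit, or that reads Rpsa, Rplp0, Rplp1 or Rplp2, was taken, and S6 kinase and pseudogene symbols were left out. The rule found 100 of the 22690 probe sets on the array, which belong to 48 of the 12393 genes that have a probe set of their own. Of these, 85 probe sets passed a filter on dim signals, a log2 value above 4 in at least 3 of the 18 samples, and 45 genes could be tested among 7092 tested in all. The 3 genes without a probe set past the filter were Rpl3l, Rpl39l and Rps4l, relatives of Rpl3, Rpl39 and Rps4x.

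The samples are aortas of male wild type C57Bl6 mice that all carried a subcutaneous pellet of spironolactone, a blocker of the mineralocorticoid receptor, at 20 mg/kg/day for 5 days, vehicle groups included. Excised aortas were then kept in organ culture with 100 nM aldosterone, the natural agonist of that receptor, or with vehicle, for 2, 4 or 8 h. Each of the 6 groups holds 3 samples, labelled as biological replicates, and each sample pools 3 aortas. The labels give no uncultured aorta, so the earliest level is that after 2 h in culture. The arrays have 1 colour, and their number per group limits the precision of each value.

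A ribosome is built from ribosomal RNA and a fixed set of ribosomal proteins, in a small subunit that reads the mRNA and a large subunit that joins amino acids. In mammals the mRNAs of these proteins begin with a run of pyrimidines, the 5′ terminal oligopyrimidine tract, through which the growth kinase mTOR and the RNA-binding protein Larp1 set how well they are translated. Assembly takes place largely in the nucleolus and needs many biogenesis factors that are not part of the finished particle. Since arrays measure mRNA, translation of these messages was not seen here.

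The array median was 4.42 in vehicle 2 h replicate 1 and 4.01 to 4.09 in the other 17 samples, and in that sample 908 of 7092 genes differed by over 1 log2 unit from the average of the other vehicle 2 h samples. Of the 45 ribosomal protein genes, 2 differed by that much, Rps2 and Rpl37, and the median difference over the 45 was 0.26. For results of the 45 genes that use vehicle at 2 h, values without that sample are given for the counts past the threshold and wherever it changes a call or a contrast described here. Counts of probe sets, of start windows and of other gene lists use all 18 samples unless stated, so an effect of that sample on them is not shown. Markers of smooth muscle (5 of 5), endothelium (4 of 4), fibroblasts (4 of 4) and adipocytes (3 of 4) passed the filter. So did 4 of 4 of macrophages at mean log2 values of 3.66 to 7.48, and 3 of 4 of cardiac muscle at 3.83 to 5.42. Of lymphocyte markers 1 of 4 passed, Ptprc at 5.15, and of skeletal muscle 0 of 4 did. In whole tissue, fewer cells of a type and less RNA per cell cannot be told apart. The control probes for RNA integrity gave 3′ minus 5′ log2 signals of 0.36 to 0.53 at 8 h and 0.56 to 0.67 at 2 h for Gapdh, and of 1.51 to 2.02 at 8 h and 1.63 to 2.11 at 2 h for beta-actin. The lower Gapdh values at 8 h moved with the time differences below, and their part in these was not tested.

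Promoter and transcript starts are shown first, since the pyrimidine run is what these genes are best known to share. RefSeq sequence around the annotated start (GRCm38.p6) was matched for 42 of the 48 genes, with 50 start windows in all. A run was counted where a C is followed without a break by C or T, at least 7 bases in all, on the coding strand within 20 bases of the start on either side. It was found in 24 of the 50 windows (48%), against 18.7% of all 32851 windows in the table. The motif CCGGAAG, the core bound by ETS factors, was searched on both strands over 250 bases before and 50 after the start, and its reverse complement CTTCCGG begins with pyrimidines and so can overlap a run. It was found in 21 of the 50 windows (42%), against 8.86% of all windows. A match is a description of the letters and not a measured site. The windows printed are examples of genes whose level was higher at 8 h in both cultures, with a run (Rps18, Rplp2, Rps6) or without one (Rplp0, Rpl11), and of genes not past the test in either, with a run (Rpl27a, Rps27). Each line gives 50 bases before the start and 20 from it onward, on the coding strand, 5′ to 3′, with the run in capitals.
Rps18, chr17:33955646-33955715, minus strand: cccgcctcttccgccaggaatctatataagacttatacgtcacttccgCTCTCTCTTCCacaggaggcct
Rplp2, chr7:141447601-141447670, plus strand: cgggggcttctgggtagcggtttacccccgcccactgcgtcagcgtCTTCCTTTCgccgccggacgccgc
Rps6, chr4:86857348-86857417, minus strand: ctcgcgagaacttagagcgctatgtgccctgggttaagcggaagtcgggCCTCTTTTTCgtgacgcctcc
Rplp0, chr5:115559417-115559486, plus strand: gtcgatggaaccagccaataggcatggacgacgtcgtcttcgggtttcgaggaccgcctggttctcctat
Rpl11, chr4:136053374-136053443, minus strand: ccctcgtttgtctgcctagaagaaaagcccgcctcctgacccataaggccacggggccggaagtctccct
Rpl27a, chr7:109519145-109519214, plus strand: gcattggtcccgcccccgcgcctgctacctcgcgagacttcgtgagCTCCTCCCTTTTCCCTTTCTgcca
Rps27, chr3:90213629-90213698, minus strand: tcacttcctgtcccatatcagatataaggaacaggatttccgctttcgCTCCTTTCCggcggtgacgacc
In Rps18 the run begins 2 bases before the annotated start and is 11 bases long, and in Rps6 it begins 1 base before it and is 10 long. Rpl27a, whose level did not change past the threshold, carries a run of 20 bases. In Rpl11 a stretch of C and T reaches the last base shown, where the search ended, so a run across that edge was not counted.

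Across the 18 samples the 45 genes gave strong and steady signals. The median of their mean log2 values was 12.25, against 6.96 over all 7092 genes, and 21 of the 100 genes with the strongest signals were ribosomal protein genes; signals of different probe sets do not rank transcripts by abundance. The median SD within groups was 0.13 (0.05 to 0.32), against 0.24 over all genes. Among the 370 genes with a mean of at least 11, the 32 ribosomal protein genes had a median SD of 0.12, against 0.15 for the 370. Rps29, a small zinc-binding protein of the small subunit, had the strongest signal, with values of 14.26 to 14.71 over the 18 samples, and Rps28, also of the small subunit, lay between 13.85 and 14.15. The weakest probe sets, 1 each for Rps4x, Rps20 and Rpl27a with means of 1.57, 1.81 and 2.29, did not pass the filter, while other probe sets of these 3 genes did.

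The first question is whether aldosterone moved these genes. None of the 45 was past an adjusted p of 0.05 (limma, adjusted over 7092 genes) at any time. At 2 h 0 were higher and 0 lower, where 0.0423% of all genes were higher and 0.0282% lower; at 4 h 0 and 0, against 0.226% and 0.0141%; and at 8 h 0 and 0, against 0.86% and 0.141%. With shares of all genes this small, a count of 0 among 45 is near the background. The unadjusted p was under 0.05 for 3 genes at 2 h, 0 at 4 h and 0 at 8 h. Averaged over the 3 times, 0 were higher and 0 lower, against 0.86% and 0.24% of all genes, and 1 had an unadjusted p under 0.05. The difference between aldosterone and vehicle did not vary between times past the threshold for any of the 45 (smallest adjusted p = 0.932), against 0.155% of all genes, and 0 had an unadjusted p under 0.05.

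The differences themselves were small. Their median over the 45 genes was -0.02 at 2 h, -0.03 at 4 h and 0.02 at 8 h on the log2 scale, and over all 7092 genes -0.07, 0.01 and 0.01. Without vehicle 2 h replicate 1 the median of the 45 at 2 h was 0.05, and again 0 of the 45 passed at any time or on average. The plot of aldosterone differences shows their range at each time. It was -0.37 to 0.58 at 2 h, -0.30 to 0.17 at 4 h and -0.22 to 0.31 at 8 h. Without vehicle 2 h replicate 1 the range at 2 h was -0.39 (Rps9) to 0.40 (Rps6). At 8 h, 44 of the 45 genes lay within 0.25 of 0, against 79.8% of all genes, and at 2 h 41 of 45 did, against 67.8%. The 95% interval of a single difference reached a median of 0.26 to either side, and 0.15 for the average over times, and was narrower for some genes and wider for others.

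**Figure D1:**
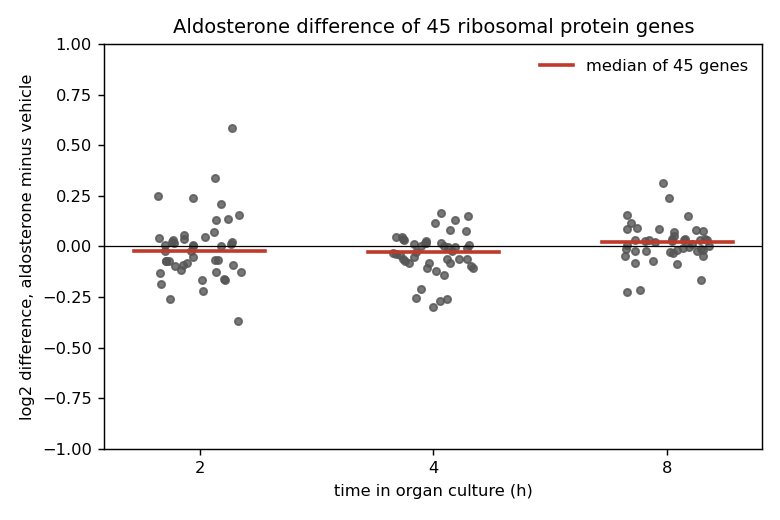
Log2 difference, aldosterone minus vehicle, of the 45 ribosomal protein genes at 2, 4 and 8 h (each point a gene, 3 samples against 3; points are spread sideways at random). The medians, -0.02, -0.03 and 0.02, lie near 0 at each time, and the highest point at 2 h is Rps2 at 0.58.

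Rps25, a small subunit protein that sits near the head and helps some viral and cellular mRNAs start translation, came nearest to a call. In aldosterone cultures it had log2 values of 7.30, 7.23 and 7.06 at 2 h, 8.53, 8.27 and 8.43 at 4 h, and 8.23, 8.06 and 8.16 at 8 h. In vehicle cultures it had 7.63, 7.61 and 7.46 at 2 h, 8.66, 8.54 and 8.65 at 4 h, and 8.18, 8.47 and 8.47 at 8 h. All aldosterone samples lay below all vehicle samples at 2 and 4 h, and the groups overlapped at 8 h. The differences were -0.37 ± 0.12 (adjusted p = 0.28), -0.21 ± 0.12 (adjusted p = 1) and -0.22 ± 0.12 (SE, adjusted p = 0.913), and their average was -0.27 ± 0.07 (limma adjusted p = 0.0955). This was the lowest average of the 45, and it passed in 2 alternative settings, with array weights and without vehicle 8 h replicate 1. Rps25 was measured by 1 probe set, with a mean log2 value of 8.05. Such a probe set is called dim below where its mean is under 9, though the median over all genes was 6.96.

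The largest positive difference, that of Rps2, rested on 1 sample. Rps2, which lines the mRNA entry of the small subunit, had 12.10, 11.97 and 12.12 with aldosterone at 2 h and 10.58, 11.92 and 11.94 with vehicle at 2 h. The low value is that of vehicle 2 h replicate 1. The difference was 0.58 ± 0.23 (adjusted p = 0.36) with that sample and 0.13 ± 0.07 (limma adjusted p = 0.393) without it. Rpl37 and Rpl12 had the next highest averages, at 0.10 ± 0.12 and 0.10 ± 0.14, and Rpl27a and Rpl7l1 the next lowest, at -0.20 ± 0.12 and -0.17 ± 0.12, none past the threshold. Without vehicle 2 h replicate 1, Rpl37 averaged -0.01 and Rpl12 0.02, Rps10 at 0.19 ± 0.07 (limma adjusted p = 0.213) and Rplp0 at 0.13 ± 0.07 (adjusted p = 0.381) were highest, and Rps25 stayed lowest at -0.26 ± 0.07 (adjusted p = 0.0554). Rps18 and Rpl13a, which are often used as reference genes in quantitative PCR, averaged -0.09 ± 0.05 (adjusted p = 0.659) and -0.02 ± 0.06 (adjusted p = 0.954).

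The second question is how the same genes moved with time in culture. At 8 h against 2 h with aldosterone, 26 of the 45 genes were higher and 0 lower, where 29.2% of all genes were higher and 27.3% lower. With vehicle 24 were higher and 0 lower, where 26.6% of all genes were higher and 31.9% lower. Every ribosomal protein gene past the threshold in these comparisons was higher at 8 h, while genes as a whole moved in both directions. The median difference of the 45 genes was 0.38 with aldosterone and 0.37 with vehicle, against 0.02 and -0.07 over all genes. Among the 370 genes with strong signals, 34.3% were higher with aldosterone and 32.7% with vehicle, and of the 32 ribosomal protein genes among them 18 were higher with aldosterone and 16 with vehicle. Without vehicle 2 h replicate 1, 29 of the 45 were higher with vehicle and 1, Rpl39, lower, against 32.4% and 28.6% of all genes, and the median was 0.45.

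By place in the ribosome, the rise was spread over both subunits. Of all genes, 29.2% were higher at 8 h with aldosterone and 26.6% with vehicle. Of 20 small subunit genes, 10 were higher with aldosterone and 9 with vehicle, and of 20 large subunit genes 11 and 10. Both measured proteins of the stalk rose in both cultures, as did the 3 measured relatives, Rps27l, Rpl22l1 and Rpl7l1. With vehicle 2 h replicate 1 left out, 11 small subunit genes were higher in each culture, 14 large subunit genes with aldosterone and 13 with vehicle. Of all genes, 32.4% were then higher with vehicle. The genes higher in both cultures numbered 23, which is 88.5% of those higher with aldosterone and 95.8% of those higher with vehicle. Without that sample they numbered 29, and the overlap over all genes is not given here. Across the 45 genes the 8 h differences in the 2 cultures, which share no sample, had a Pearson r of 0.919 and a Spearman rho of 0.925, against an r of 0.948 across all genes; genes are not independent replicates, and the values share the array and its normalization. The plot of 8 h differences shows this gene by gene.

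**Figure D2:**
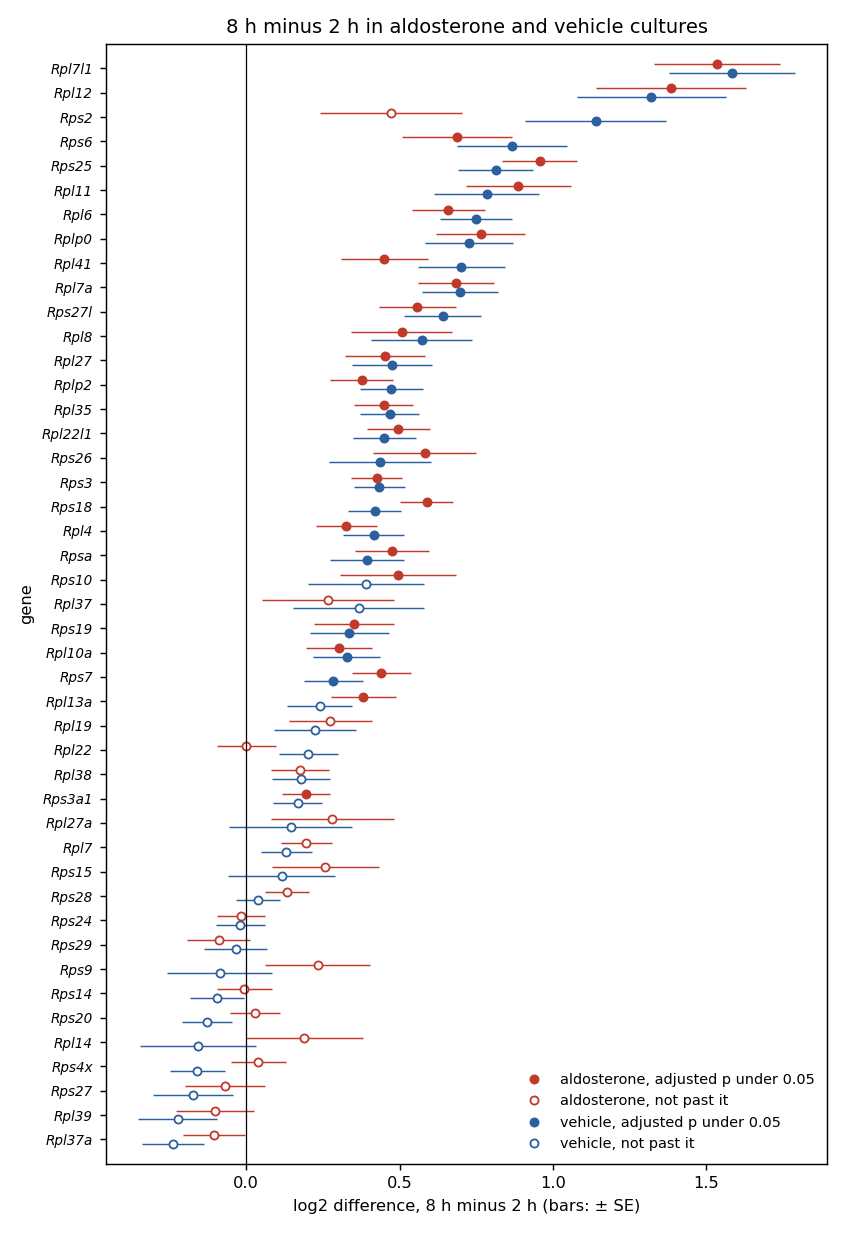
Log2 difference, 8 h minus 2 h, for each of the 45 genes in aldosterone cultures (red, upper of each pair) and vehicle cultures (blue, lower of each pair), with ± SE from the fit; filled points are past an adjusted p of 0.05. Rpl7l1 and Rpl12 lie highest in both, and no filled point lies below 0.

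The stalk of the large subunit, where translation factors dock, is carried by Rplp0. Its log2 values at 8 h were 12.91, 13.03 and 13.21 with aldosterone, against 12.30, 12.16 and 12.40 at 2 h. With vehicle they were 13.18, 13.01 and 12.73 at 8 h, against 12.59, 12.11 and 12.04 at 2 h. No 8 h sample overlapped a 2 h sample, and the difference was 0.76 ± 0.14 with aldosterone (limma adjusted p = 0.000215) and 0.73 ± 0.14 with vehicle (adjusted p = 0.000337), or 0.90 ± 0.13 with vehicle without replicate 1 of the 2 h group. Rplp2, which pairs with Rplp1 at the tip of the stalk, rose by 0.38 ± 0.10 with aldosterone (adjusted p = 0.00449) and by 0.47 ± 0.10 with vehicle (adjusted p = 0.000724). Rplp1 has no probe set of its own on this array.

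Among large subunit genes, Rpl11, which joins the ribosome with the smallest ribosomal RNA and, when free, inhibits the p53 ligase Mdm2, had 11.20, 11.46 and 11.69 at 8 h with aldosterone, against 10.64, 10.39 and 10.65 at 2 h. With vehicle it had 11.62, 11.26 and 11.36 at 8 h, against 11.06, 10.39 and 10.44 at 2 h. Samples of the times did not overlap, and the differences were 0.89 ± 0.17 (limma adjusted p = 0.000267) with aldosterone and 0.78 ± 0.17 (adjusted p = 0.000792) with vehicle, or 1.85-fold and 1.72-fold. With vehicle 2 h replicate 1 left out, the vehicle difference was 0.999 ± 0.15. Rpl6 rose 1.58-fold with aldosterone and 1.68-fold with vehicle (adjusted p = 0.000134 and 3.53e-05). Rpl13a rose by 0.38 ± 0.11 with aldosterone (adjusted p = 0.00545) and had 0.24 ± 0.11 with vehicle (adjusted p = 0.0638), or 0.31 ± 0.11 (adjusted p = 0.0187) with vehicle once replicate 1 at 2 h was left out, so both cultures then passed. None of the 45 genes passed the test of whether the effect of aldosterone varied between times, which bears on such differences between the cultures. Rpl13a has 4 probe sets past the filter, and its values above are of the strongest. With vehicle, another had 9.71, 9.17 and 9.44 at 8 h and 8.48, 8.57 and 8.69 at 2 h. A further one had 10.09, 9.62 and 9.86, against 9.21, 9.10 and 9.09. The last had 12.04, 11.70 and 11.56, against 11.59, 11.28 and 11.1, and its times overlapped.

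Rpl12, near the base of the stalk, and Rpl7l1, a relative of Rpl7 found in nucleoli, had the highest differences. Rpl12 was measured by a dim probe set, with 5.97, 6.00 and 5.80 at 8 h and 4.72, 4.45 and 4.44 at 2 h with aldosterone. With vehicle it had 6.07, 5.46 and 5.30 at 8 h and 3.80, 4.62 and 4.45 at 2 h. It rose 2.61-fold with aldosterone and 2.5-fold with vehicle (limma adjusted p = 0.000111 and 0.000171). Rpl7l1 had 8.53, 8.61 and 8.73 at 8 h and 7.35, 6.74 and 7.17 at 2 h with aldosterone, and 8.94, 8.74 and 8.83 at 8 h and 7.83, 7.05 and 6.88 at 2 h with vehicle. It rose 2.9-fold and 3-fold (limma adjusted p = 5.74e-06 and 3.93e-06), and its second probe set gave 1.61 with aldosterone and 1.27 with vehicle on the log2 scale. Rpl7 itself had 0.20 ± 0.08 (adjusted p = 0.0517) and 0.13 ± 0.08 (adjusted p = 0.183).

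Of the small subunit, Rps18 had 14.10, 14.02 and 14.05 at 8 h and 13.51, 13.51 and 13.39 at 2 h with aldosterone, and 14.08, 14.00 and 14.14 at 8 h and 13.84, 13.56 and 13.56 at 2 h with vehicle. The samples of the times did not overlap, and the rise was 0.59 ± 0.09 with aldosterone (limma adjusted p = 1.66e-05) and 0.42 ± 0.09 with vehicle (adjusted p = 0.000486). A reference gene is used on the premise that it stays level, and Rps18 was 1.5-fold higher at 8 h with aldosterone and 1.34-fold with vehicle. Rps6, the substrate of S6 kinase downstream of mTOR, was measured by a dim probe set and rose by 0.69 ± 0.18 with aldosterone (adjusted p = 0.00333) and by 0.87 ± 0.18 with vehicle (adjusted p = 0.000488). Rpsa, also known as a laminin-binding protein, rose by 0.48 ± 0.12 (adjusted p = 0.00269) and 0.39 ± 0.12 (adjusted p = 0.00953). Rps25 rose by 0.96 ± 0.12 with aldosterone (adjusted p = 3.5e-06) and by 0.81 ± 0.12 with vehicle (adjusted p = 2.06e-05). Rps2 had 0.47 ± 0.23 with aldosterone (adjusted p = 0.091) and rose by 1.14 ± 0.23 with vehicle (adjusted p = 0.000399). Without vehicle 2 h replicate 1 these became 0.47 ± 0.06 (adjusted p = 4.13e-06) and 0.69 ± 0.07 (limma adjusted p = 2.3e-07). With that sample left out, Rps2 was past the threshold in both cultures.

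**Figure D3:**
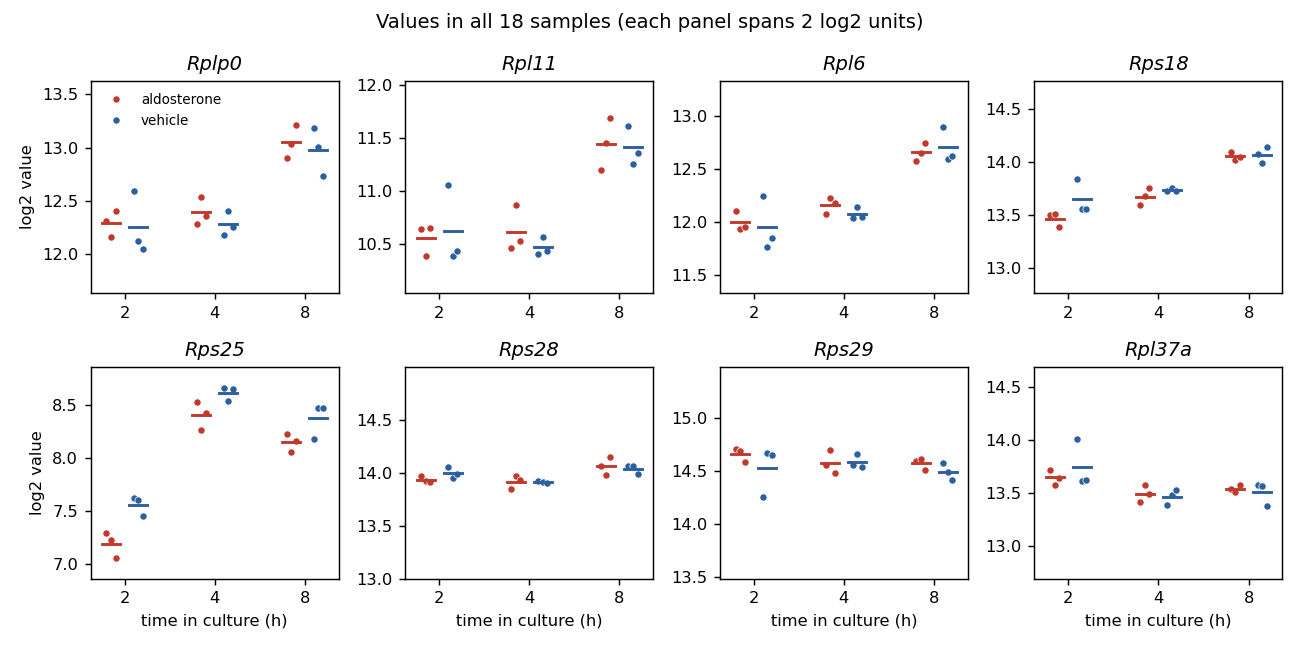
Log2 values of 8 genes in every sample by time in culture, with aldosterone (red, left of each pair) and vehicle (blue, right of each pair); points are samples, lines are means, and each panel spans 2 log2 units. Rplp0, Rpl11, Rpl6 and Rps18 are highest at 8 h, and Rps25 is higher at 4 and 8 h than at 2 h. Rps28 and Rps29 move little, and Rpl37a has its highest mean at 2 h in both cultures.

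The measured relatives rose in both cultures. On the probe set that stood for each gene, Rpl7, Rps27 and Rpl22, which the relatives resemble, did not pass the threshold with all samples. Once vehicle 2 h replicate 1 was left out, Rpl7 passed with aldosterone (0.20 ± 0.07, limma adjusted p = 0.0191) and had 0.18 ± 0.08 (adjusted p = 0.0501) with vehicle, and Rps27 and Rpl22 again did not pass. Rps27l, a p53-induced relative of Rps27, rose by 0.56 ± 0.13 with aldosterone (limma adjusted p = 0.00102) and by 0.64 ± 0.13 with vehicle (adjusted p = 0.000294), and its 3 probe sets gave 0.56 to 0.66 with aldosterone and 0.59 to 0.64 with vehicle. Rps27 had -0.07 ± 0.13 (adjusted p = 0.681) and -0.17 ± 0.13 (adjusted p = 0.26), on a dim probe set with values of 4.94 to 5.38. Rpl22l1 rose by 0.50 ± 0.10 (adjusted p = 0.000542) with aldosterone and by 0.45 ± 0.10 (adjusted p = 0.00123) with vehicle. Rpl22, the gene it resembles, had 0.00 ± 0.10 (adjusted p = 0.999) and 0.20 ± 0.10 (adjusted p = 0.0834) on its strongest probe set. A weaker Rpl22 probe set was lower at 8 h, with no overlap of the times. With aldosterone it had 6.40, 6.81 and 6.48 at 8 h and 7.32, 7.29 and 7.14 at 2 h. With vehicle it had 6.94, 6.69 and 6.93 at 8 h and 8.01, 7.32 and 7.26 at 2 h. The difference in response between a relative and its partner was not tested, and the probe sets of near-identical copies can share signal.

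Not every gene passed the threshold at 8 h against 2 h. Rps28 had 14.06, 13.98 and 14.15 at 8 h and 13.97, 13.92 and 13.91 at 2 h with aldosterone, and 14.06, 14.06 and 13.98 at 8 h and 14.06, 13.95 and 13.98 at 2 h with vehicle. Its differences were 0.13 ± 0.07 (limma adjusted p = 0.131) and 0.04 ± 0.07 (adjusted p = 0.67). Rps29 gave -0.09 ± 0.10 (adjusted p = 0.483) and -0.03 ± 0.10 (adjusted p = 0.79). Rpl37a gave -0.11 ± 0.10 and -0.24 ± 0.10, Rpl39 -0.10 ± 0.13 and -0.22 ± 0.13, and Rps4x 0.04 ± 0.09 and -0.16 ± 0.09, none past the threshold with all samples. In all, 18 genes were higher in neither culture. The median of the mean log2 values was 12.25 for the 23 genes higher in both and 12.02 for these 18, and across the 45 genes the mean value and the vehicle difference had a Pearson r of -0.175. At the transcript start, a pyrimidine run stood in 12 of 26 windows of the genes higher in both (46.2%) and in 9 of 17 windows of those higher in neither (52.9%), and CCGGAAG in 12 of 26 (46.2%) and 5 of 17 (29.4%); these shares were not tested.

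The vehicle groups also give the steps of the time course, whose relative size depended on the scaling. At 4 h against 2 h, 5 of the 45 genes were higher and 2 lower, where 14.6% of all genes were higher and 25.6% lower, with a median of 0.03 against -0.13 over all genes. The 5 were Rpl12 at 2.09 ± 0.24 (limma adjusted p = 6.06e-06), Rpl7l1 at 1.12 ± 0.20 (adjusted p = 0.000407), Rps25 at 1.05 ± 0.12 (adjusted p = 5.61e-06), Rps2 at 0.69 ± 0.23 (adjusted p = 0.0248) and Rpl41 at 0.37 ± 0.14 (adjusted p = 0.0454). The 2 were Rpl37a at -0.28 ± 0.10 (adjusted p = 0.0353) and Rps4x at -0.23 ± 0.09 (adjusted p = 0.0483). Without vehicle 2 h replicate 1, 7 were higher and 0 lower, against 20.1% and 19.7% of all genes: Rpl12, Rpl7l1, Rps25 and Rps2 stayed, Rpl41, Rpl37a and Rps4x were not past the threshold, and Rpl6, Rpl7a and Rps6 joined. With each array centred on its median, 10 were higher and 0 lower, with a median of 0.17 against 0.02 over all genes. Of all 7092 genes, 1512 were then higher and 1491 lower, so the 10 higher of 45 were near the background. Of the called genes 50.3% were higher, against 36.4% without centring. The count of 7 fell to 3 without vehicle 4 h replicate 1 or 2 and to 4 without vehicle 4 h replicate 3, and Rpl12, Rpl7l1 and Rps25 passed in each.

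At 8 h against 4 h, 22 were higher and 1 lower, where 20.7% of all genes were higher and 17% lower, with a median of 0.30 against 0.03 over all genes. Rpl11 led with 0.94 ± 0.17 (limma adjusted p = 0.000362), on values of 11.62, 11.26 and 11.36 at 8 h and 10.41, 10.57 and 10.43 at 4 h. Rplp0 rose by 0.70 ± 0.14 (adjusted p = 0.00104), Rpl6 by 0.63 ± 0.12 (adjusted p = 0.000504), and Rps10 and Rps26, both of the small subunit, by 0.57 ± 0.19 and 0.57 ± 0.17. The 1 lower gene was Rpl12, at -0.77 ± 0.24 (adjusted p = 0.0193), whose values of 6.07, 5.46 and 5.30 at 8 h overlapped those of 6.64, 6.57 and 5.93 at 4 h. With vehicle, Rpl12 and Rps25 had their highest mean at 4 h (the 8 h difference of Rps25 from 4 h was -0.24 ± 0.12, adjusted p = 0.132), and Rplp0, Rpl11 and Rpl6 had theirs at 8 h. The count of 23 was 12 without vehicle 4 h replicate 1, 12 without vehicle 8 h replicate 1, 15 without vehicle 8 h replicate 2 and 13 with each array centred on its median, where 12 were higher and 1 lower and the median was 0.22. On that scaling 1396 of all 7092 genes were higher and 1501 lower, with a median of -0.05 over all genes. The medians of the 45 genes before and after 4 h, 0.17 and 0.22 with centring, were thus closer than on the deposited values. Both comparisons use the vehicle 4 h samples.

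Several genes were read by more than 1 probe set, and these did not always move alike. Tested one by one, 44 of the 85 probe sets were higher and 2 lower at 8 h against 2 h with vehicle, where 25.6% of all 11236 probe sets were higher and 30.7% lower. Of 19 genes read by several filtered probe sets, all probe sets had the same sign in 11 with vehicle and 14 with aldosterone. All 3 Rps18 probe sets rose, by 0.59 to 0.85 with aldosterone and by 0.42 to 0.82 with vehicle. Rpl41, a very short protein of the large subunit, was the 1 gene called both ways with vehicle: its strongest probe set rose by 0.70 ± 0.14 (limma adjusted p = 0.000422) and its weakest fell by 0.59 ± 0.19 (adjusted p = 0.0116), to 6.95, 7.13 and 7.24 at 8 h, against 7.71, 7.40 and 8.00 at 2 h. With the mean of its probe sets, Rpl41 was at 0.01 with aldosterone and 0.05 with vehicle, so its rise rests on the choice of probe set.

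In 2 genes, singled out after their values were seen, a dim probe set was higher at 8 h than at 2 h where no stronger one passed the threshold. Rps24, of the small subunit, gave -0.02 ± 0.08 with aldosterone and -0.02 ± 0.08 with vehicle on its strongest probe set. A dim Rps24 probe set had 8.34, 8.05 and 7.92 at 8 h and 6.57, 6.72 and 5.64 at 2 h with aldosterone, and 7.82, 7.85 and 8.12 at 8 h and 6.99, 6.99 and 6.61 at 2 h with vehicle. It rose by 1.79 ± 0.22 (limma adjusted p = 3.1e-06) and by 1.07 ± 0.22 (adjusted p = 0.000581). Rps9 gave 0.23 ± 0.17 and -0.09 ± 0.17 on its strongest probe set. Its dimmest probe set lay between 4.14 and 4.61 at 8 h and between 3.46 and 3.96 at 2 h with aldosterone, and between 3.99 and 4.27 at 8 h and between 3.52 and 3.57 at 2 h with vehicle. It passed the filter only through samples at 4 and 8 h, so its rise is given as values with no test. Which transcripts these dim probe sets read was not tested.

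**Figure D4:**
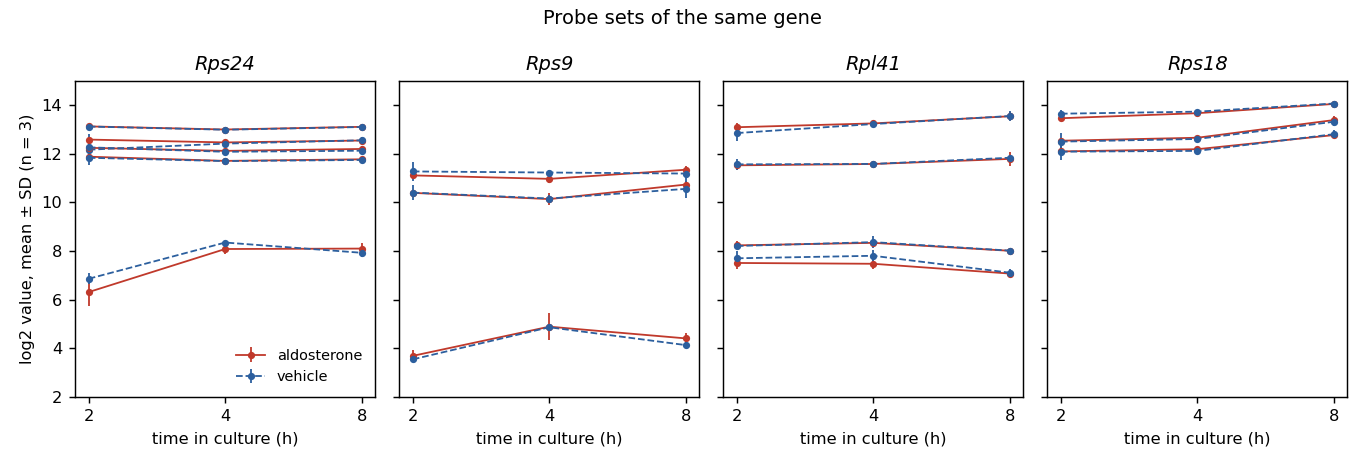
Log2 values, mean ± SD over 3 samples, of each probe set past the filter for 4 genes by time in culture, with aldosterone (red, solid) and vehicle (blue, dashed). In Rps24 and Rps9 the lowest line is highest at 4 h or stays up at 8 h while the upper lines move less, in Rpl41 the strongest and weakest lines move in opposite directions at 8 h, and in Rps18 all 3 lines are highest at 8 h.

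Another 102 probe sets name a ribosomal protein symbol together with other genes, mostly near-identical copies, and were kept out of the fit. They include the only probe sets for Rplp1, Rpl5, Rpl32, Rpl3, Rpl36al and Rpl10. Of these 102, 91 passed the filter, with a median level of 12.39. Their median at 8 h minus 2 h was 0.29 with aldosterone (70 of 91 above 0) and 0.19 with vehicle (74 of 91 above 0), and their median for aldosterone minus vehicle at 8 h was 0.00. The share of all probe sets above 0 is not given here, so these counts have no background beside them.

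Other parts of the ribosome pathway were measured beside the proteins. Of 57 ribosome biogenesis and RNA polymerase I genes tested, 52 were higher and 0 lower at 8 h against 2 h in each culture, where 29.2% of all genes were higher with aldosterone and 26.6% with vehicle, and the medians were 1.73 with aldosterone and 1.70 with vehicle. The 4 with the smallest p were Nhp2 and Gar1, which hold the RNAs that guide pseudouridine, and the assembly factors Nip7 and Wdr75. Nhp2 rose 6.53-fold with aldosterone and 8.95-fold with vehicle, and Gar1 5.49-fold and 5.91-fold (limma adjusted p at most 7.62e-10). Most of this came early: at 4 h against 2 h with vehicle, 49 of 57 biogenesis genes were higher and 1 lower, where 14.6% of all genes were higher and 25.6% lower, with a median of 1.18, when 5 of 45 ribosomal protein genes were higher. The lower gene was Nop10 at -0.39. At 8 h against 4 h, 22 were higher and 3, Gnl2, Gnl3 and Polr1c, lower, with a median of 0.36, where 20.7% of all genes were higher and 17% lower.

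Among 18 translation factors and other genes whose mRNAs carry the pyrimidine tract, 8 were higher and 0 lower at 8 h with aldosterone and 10 higher and 1 lower with vehicle, with medians of 0.33 and 0.35, beside the same 29.2% and 26.6% of all genes higher. The lower gene was Hnrnpa1 at -0.50 ± 0.14 (limma adjusted p = 0.00554). Npm1, a nucleolar histone chaperone, rose by 1.13 ± 0.11 (limma adjusted p = 1.74e-07) and 0.96 ± 0.11 (adjusted p = 1.13e-06), and Eif3e, a subunit of an initiation factor, rose by 0.54 ± 0.08 and 0.40 ± 0.08. Fau, whose product is cut to release a small subunit protein, rose by 0.45 ± 0.16 (adjusted p = 0.0207) and 0.53 ± 0.16 (adjusted p = 0.0077). Of 71 proteins of the mitochondrial ribosome, 29 were higher and 5 lower with aldosterone and 30 higher and 5 lower with vehicle, with medians of 0.37 and 0.36, where 29.2% of all genes were higher and 27.3% lower with aldosterone and 26.6% higher and 31.9% lower with vehicle. Mrpl23, Mrpl34, Mrpl42 and Mrps36 were lower in both cultures, Mrps24 with aldosterone and Mrpl18 with vehicle. At 4 h against 2 h with vehicle, 7 of these were higher and 14 lower, where 14.6% of all genes were higher and 25.6% lower. Once vehicle 2 h replicate 1 was left out, these were 18 and 11, where 20.1% and 19.7% of all genes were. At 8 h against 4 h 31 were higher and 0 lower, where 20.7% of all genes were higher and 17% lower. The median deviation of the 45 cytosolic genes in a sample lay at 0.21, 0.21 and 0.33 at 8 h with aldosterone and at 0.33, 0.19 and 0.15 with vehicle, above every 2 h and 4 h sample, of which vehicle 2 h replicate 1 was the highest at 0.05. The plot of 3 gene lists shows the means of the cytosolic and mitochondrial lists highest at 8 h, and the biogenesis list already raised at 4 h. The mitochondrial list did not separate the times in every sample. Its median deviation was 0.29 in vehicle 2 h replicate 1, within the 8 h range of 0.17 to 0.34.

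**Figure D5:**
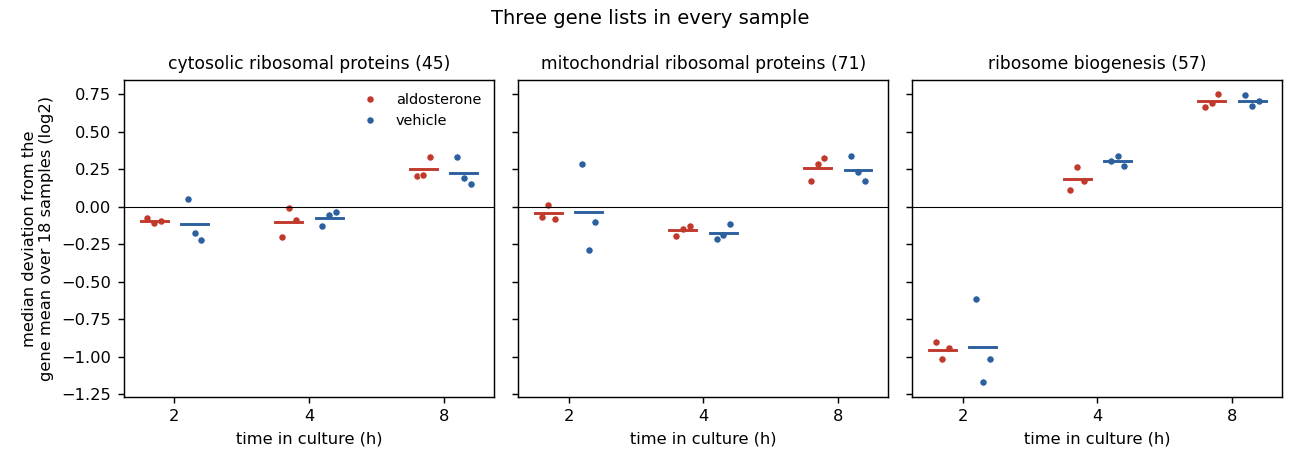
Median deviation from each gene's mean over the 18 samples (log2) in every sample, for cytosolic ribosomal proteins, mitochondrial ribosomal proteins and ribosome biogenesis genes, with aldosterone (red, left of each pair) and vehicle (blue, right of each pair); points are samples and lines are means. The biogenesis list is below 0 at 2 h and above it at 4 and 8 h. The means of the other lists are highest at 8 h, where all 6 samples lie above 0. In the mitochondrial list, vehicle 2 h replicate 1 lies at 0.29, within the 8 h range of 0.17 to 0.34.

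Of 15 measured genes of mTOR and growth control, 8 were higher and 2 lower at 8 h with aldosterone, and 5 higher and 1 lower with vehicle. With 29.2% of all genes higher with aldosterone and 26.6% with vehicle, the vehicle count is near the background. Eif4ebp1, the inhibitor of cap-dependent translation that mTOR switches off, rose 8.23-fold and 9.19-fold (limma adjusted p = 5.19e-10 and 2.33e-10), Ddit4, a stress-induced brake on mTOR, rose 3.47-fold and 3.72-fold, and Rheb, its activator, 1.56-fold and 1.6-fold. Larp1 rose 2.27-fold with aldosterone and 1.94-fold with vehicle (adjusted p = 4.2e-06 and 4.05e-05). The lower genes were Sesn1, a leucine sensor, in both cultures and Tsc1, a brake on mTOR, with aldosterone. Sesn1 was at 0.311 of its 2 h level with aldosterone (adjusted p = 0.00014) and at 0.13 of it with vehicle (adjusted p = 2.78e-07). Sesn2, of the same family, went the other way. It rose 2.46-fold with aldosterone and 3.11-fold with vehicle (limma adjusted p = 0.001 and 0.000118). At 8 h Sesn1 was 2.51-fold higher with aldosterone than with vehicle (1.33 ± 0.30, adjusted p = 0.0419), the 1 gene of these lists that was past the threshold for aldosterone at 8 h. Activity of mTOR and the amount of ribosomes were not measured.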

How the data were processed

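RNA of 18 aorta samples was measured on 1-colour Affymetrix arrays. The authors deposited log2 expression values; the submitters' processing notes name GCRMA, a background correction and quantile normalization that pools a probe set's probes, with no version or settings. Raw scans were not used here. The table holds 22690 probe sets, 64 of them array controls, and gene symbols came from the array's annotation, where 20380 probe sets name 1 gene, 691 several and 1619 none. Probe sets of 1 gene with a log2 value above 4 in at least 3 samples were kept (11236), and the one with the highest mean stood for each of 7092 genes. In R 4.3.3, limma 3.58.1 fitted a mean for each of the 6 groups, with a prior that follows the signal and 12 residual degrees of freedom. Benjamini-Hochberg adjustment ran over all 7092 genes, at a threshold of 0.05. The fit was tested on simulated data.

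The rule for the members uses gene names alone, but this set of genes, the gene lists and the tests were chosen with earlier results of these data known. Genes were named if past the threshold (the 5 largest rises and falls where over 10 passed), if they are stalk, reference, p53-linked or paralogous genes, or if they had the 3 highest or lowest differences for the average aldosterone effect or vehicle 8 h against 2 h, or the 3 strongest or weakest signals. Genes of other lists were named by smallest p, at most 4 a list, or where few fell, and Sesn2 was named beside Sesn1. Alternatives were the prior, filter, probe set rule, scaling, array weights, replicate block, the groups in the fit and leaving out each sample. Deviations of same-numbered samples had correlations of -0.186 to 0.282, and 6 of 45 pairs were over 0.1. No strong pairing by replicate number was seen, though these values cannot show whether same-numbered samples were handled together.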

Additional observations from a re-analysis of the deposited data

How the results depend on the processing

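No ribosomal protein gene changed the sign of a called difference under any of 28 alternatives, and 48 of 80 calls held under all of them, while 32 were lost under at least 1. With vehicle at 4 h against 2 h, the 7 calls became 4 without an intensity trend, 3 with no filter and 3 when only the groups compared were fitted, and the median of 0.03 became 0.17 with each array centred on its median, where the median of all genes was 0.02 in place of -0.13. At 8 h against 4 h the 23 calls became 13 with centred arrays. For the average aldosterone effect the count of 0 became 1, Rps25, with array weights. The causes were not tested. For aldosterone at 2 h, 60% of the 5 genes called on the whole array were higher, 80% of 10 with centred arrays and 87.5% of 8 after quantile normalization. With the replicate block, the counts were 5 and 20 for these vehicle comparisons, 24 for vehicle and 25 for aldosterone at 8 h against 2 h, and 0 for aldosterone against vehicle.

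Leaving out each sample in turn gave 0 calls for aldosterone at 2, 4 and 8 h and for its variation between times, and 0 to 1 for the average. It gave 3 to 7 calls with vehicle at 4 h against 2 h, 12 to 28 at 8 h against 4 h, 21 to 30 at 8 h against 2 h, and 20 to 30 with aldosterone at 8 h against 2 h. Medians ran from -0.09 to 0.05, -0.07 to 0.01 and -0.02 to 0.05 for aldosterone at 2, 4 and 8 h and from -0.03 to 0.02 for the average. They ran from -0.03 to 0.11, 0.23 to 0.33 and 0.27 to 0.45 for the vehicle comparisons in the same order, and from 0.31 to 0.42 with aldosterone at 8 h against 2 h. With 3 pools a group, the 95% interval of a single gene's difference reached 0.26 to either side at the median over the 45 genes.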
